A study of Mus musculus with 9 samples.

Results

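Tektins, outer dense fibre proteins and fibrous sheath proteins build the tail of the sperm, and 10 of their genes are described here, chosen by name: Tekt1, Tekt2, Tekt3, Tekt4, Tekt5, Odf1, Odf2, Akap3, Akap4 and Fsip2. The count table held 9 of them among its 24505 gene names. Fsip2, whose product binds the fibrous sheath, had no line under that name and is not analysed here. The genes were followed library by library from spermatogonia into meiosis, with and without retinoic acid (RA) made by the testis.

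All 9 libraries came from EGFP+ germ cells sorted from Uchl1-eGfp mice, a C57BL/6 line crossed out to CD-1 animals, in which the Uchl1 promoter drives the reporter. Every mouse had received WIN18,446, a blocker of RA synthesis, by mouth at 100 µg per g of body weight from postnatal day (P) 1, until P11 by the labels and P10 by the methods of the study, and 10 µl of RA at 10 µg/µl under the skin at P11. Intermediate and type B (In/B) spermatogonia were taken at P17, and the labels do not say which regimen these mice followed after RA. Preleptotene (PL) spermatocytes were taken at P19, from mice in which WIN18,446 was stopped (RA-sufficient) or continued (RA-deficient). In the study, the In/B cells were sorted as EGFP-bright and the PL cells as EGFP-dim, so the sorting gate differed between them. Each group had 3 libraries, and each cell preparation pooled the testes of at least 5 pups of 1 litter. P-values cover the spread between such pooled preparations.

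Tektins are filament-forming proteins that line the inside of the doublet microtubules of cilia and flagella. Outer dense fibres run along those doublets in the middle and principal pieces of the sperm tail, and the fibrous sheath encloses the principal piece and anchors protein kinase A (PKA). Transcripts of the fibres and the sheath are known mainly from spermatids, and many flagellar genes are first transcribed in pachytene spermatocytes, well after preleptotene. PL cells come before both of these stages.

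The genes lie on 8 chromosomes in the mm9 build, with positions from the GENCODE M1 annotation. Tekt1 (chr11:72158224-72175944, minus strand) and Tekt3 (chr11:62875156-62908466, plus strand) share a chromosome. Akap4 (chrX:6644645-6655735, plus strand) is X-linked. Genes on the opposite strand overlap Tekt2 (chr4:125999365-126002932, minus strand), shared with Gm12945, and Odf2 (chr2:29744741-29787266, plus strand), which holds a U6 entry. Neither partner is analysed here.

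Promoter sequences from RefSeq on GRCm38.p6 were held for 9 of the 10 genes, Odf1 being the exception. Where a gene had several windows, as Tekt1 with 2 and Tekt2 with 3, the first listed was used. The windows of Tekt1 and Tekt2 are shown because each holds the RFX motif GTTGCC on both strands, read as GGCAAC where it lies on the opposite strand. Regulatory factor X (RFX) proteins are known regulators of ciliary genes. The 120 bases before each start are printed 5′ to 3′ on the strand of the gene, with these motifs in capitals, for Tekt1 at chr11:72361883-72362002 (minus strand) and for Tekt2 at chr4:126325689-126325808 (minus strand).
Tekt1: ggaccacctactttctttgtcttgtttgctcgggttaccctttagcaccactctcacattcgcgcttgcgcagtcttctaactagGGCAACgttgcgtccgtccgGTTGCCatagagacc
Tekt2: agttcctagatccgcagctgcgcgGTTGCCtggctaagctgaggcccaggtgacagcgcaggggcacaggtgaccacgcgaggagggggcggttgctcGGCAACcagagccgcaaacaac

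In Tekt1 the motifs begin 35 and 15 bases before the start, and in Tekt2 96 and 22 bases before it. Within 250 bases before the start, this 6-letter word was present on either strand in 2 of the 9 windows and in 10.5% of all 27025 windows. The MYB word CAGTTA was found in 1 window, that of Akap3, against 8.57% of all, and the CCAAT box in 4 windows (Fsip2, Akap3, Tekt1, Akap4) against 34.5%. None of the 9 windows held the cyclic AMP response element TGACGTCA (1.62% of all), its relaxed form TGACGTNA (2.65%) or the RA receptor motif AGGTCA (13.8%). A match or its lack describes these letters in this window only. The end of the Tekt2 window, past its start, was not found in a transcript, so the Tekt2 distances hold for that listed start only.

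Akap3 and Akap4, the genes of the anchoring proteins of the fibrous sheath, are shown for a 20-base run that their windows share, which was noticed after the sequences had been compared. The run is in capitals, and the 120 bases before the start are at chr6:126852978-126853097 for Akap3 and chrX:7067395-7067514 for Akap4, both on the plus strand.
Akap3: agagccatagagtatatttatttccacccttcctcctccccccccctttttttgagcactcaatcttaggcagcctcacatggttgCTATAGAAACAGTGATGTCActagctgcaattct
Akap4: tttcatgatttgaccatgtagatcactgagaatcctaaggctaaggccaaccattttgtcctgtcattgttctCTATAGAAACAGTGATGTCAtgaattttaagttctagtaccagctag

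This run begins 34 bases before the start of Akap3 and 47 bases before that of Akap4, and no other of the 27025 windows held it on either strand. Among the 36 pairs of windows, the next longest shared run had 11 bases.

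Sequencing depth was 12612959 to 26684393 counts per library in the In/B and RA-sufficient groups and 25048240 to 27042274 in the RA-deficient group. The RA-deficient libraries were among the deepest, and 14769 to 15327 genes had a count there, against 16758 to 18434 in the other 6. Values below are counts per 1000000 after TMM scaling over the 9 libraries (CPM), and 3 counts in a library correspond to 0.111 to 0.238 CPM.

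The labelled cell types were checked against marker lists, and the RA-deficient libraries did not stand together. Kit, a receptor of differentiating spermatogonia, was at 560.6 and 521.1 CPM in RA-deficient libraries 1 and 2, above its range in In/B cells (327.4 to 404.1), and at 20.3 CPM in library 3, within the RA-sufficient range (20.2 to 41.0). Dmrt1, a spermatogonial transcription factor, was at 460.2, 485.4 and 110.7 CPM in these libraries. Libraries 1 and 2 were below its In/B range (533.8 to 711.1), and library 3 was above its RA-sufficient range (72.05 to 76.81). The 11 spermatogonial markers summed to 3913 to 5778 CPM in In/B and to 892.7 to 1096 CPM in RA-sufficient PL. Their sums were 3408, 3495 and 1656 CPM in RA-deficient libraries 1, 2 and 3. Not every marker split in this way. Zbtb16 was at 167.7, 145.1 and 226.6 CPM there and Lin28a at 75.4, 72.8 and 71.5 CPM. In RA-sufficient PL, Zbtb16 was at 41.9 to 91.0 CPM and Lin28a at 16.4 to 33.0 CPM. The meiotic gene Sycp3 was high in all 6 PL libraries, at 402.9 to 701.1 CPM, and at most 104.2 CPM in In/B cells. Because of this split, results of the RA-deficient group are given with and without library 3.

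**Figure D1:**
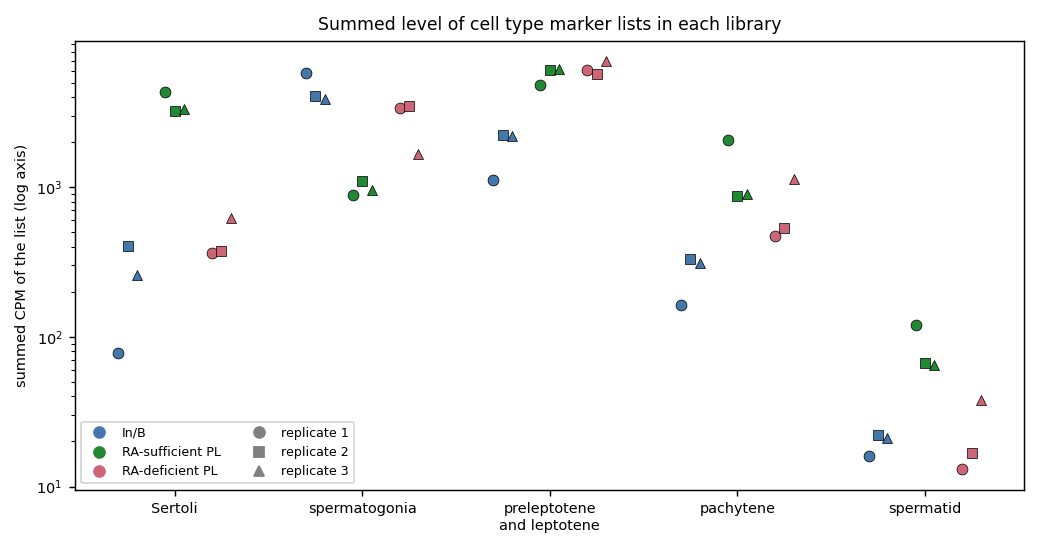
Summed CPM (log axis) of the marker genes of 5 cell types in each of the 9 libraries, coloured by group, with the symbol giving the replicate number. RA-sufficient libraries sit highest for Sertoli markers (3243 to 4333), and RA-deficient library 3 sits apart from libraries 1 and 2 for the spermatogonial and pachytene lists.

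Markers of other cells also moved with the groups. The 11 Sertoli markers measured summed to 3243 to 4333 CPM in RA-sufficient PL libraries, to 365.1 to 619.5 CPM in RA-deficient ones and to 78.1 to 406.9 CPM in In/B. All 11 were called higher in RA-sufficient PL than in In/B and lower in RA-deficient than in RA-sufficient PL. The 11 pachytene markers summed to 875.1 to 2077 CPM in RA-sufficient PL, to 470.9, 533.6 and 1136 CPM in RA-deficient libraries 1, 2 and 3, and to 164.6 to 331.9 CPM in In/B. Ybx2 made up most of the sum in the RA-deficient libraries, at 432.8, 500.7 and 797.8 CPM. The other 10 markers summed to 473.2 to 1605 CPM in RA-sufficient PL, to 38.1, 33.0 and 338.2 CPM in the RA-deficient libraries and to 93.3 to 204.6 CPM in In/B. Of these, Ldhc was at 171.2 to 562.3 CPM in RA-sufficient PL and at 0.800, 1.74 and 89.8 CPM in the RA-deficient libraries. The 16 spermatid markers summed to 64.9 to 119.2 CPM in RA-sufficient PL, to 13.04 to 37.78 CPM in RA-deficient PL and to 16.1 to 22.2 CPM in In/B. Of 7 tested against In/B, 4 were called higher in RA-sufficient PL (Spaca1, Zpbp, Zpbp2 and Smcp) and 1 lower, and Zpbp2, an acrosomal gene, was at 69.3, 29.8 and 29.8 CPM. The late spermatid genes Prm1, Prm2 and Tnp1 were at most 1.10 CPM in any library. The part of these cells in the results on tail genes was not tested, and in such bulk samples fewer cells of a type and less RNA per cell cannot be told apart.

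Set against In/B spermatogonia, 6 of the 9 tail genes rose in RA-sufficient PL cells: Tekt1, Tekt2, Tekt3, Tekt4, Odf1 and Akap3. None fell. Tekt5 and Odf2 were tested and not called, and Akap4 had too few counts to enter the test. Calls required a change of more than 1 on the log2 scale and an adjusted p under 0.05 in edgeR's quasi-likelihood test, a rule that 26.1% of the 15001 genes tested met as higher and 19.3% as lower. The median log2 fold change of the 8 tail genes tested was 3.71, against 0.04 over all genes, and filtering on low counts keeps a gene that is high in either group.

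**Figure D2:**
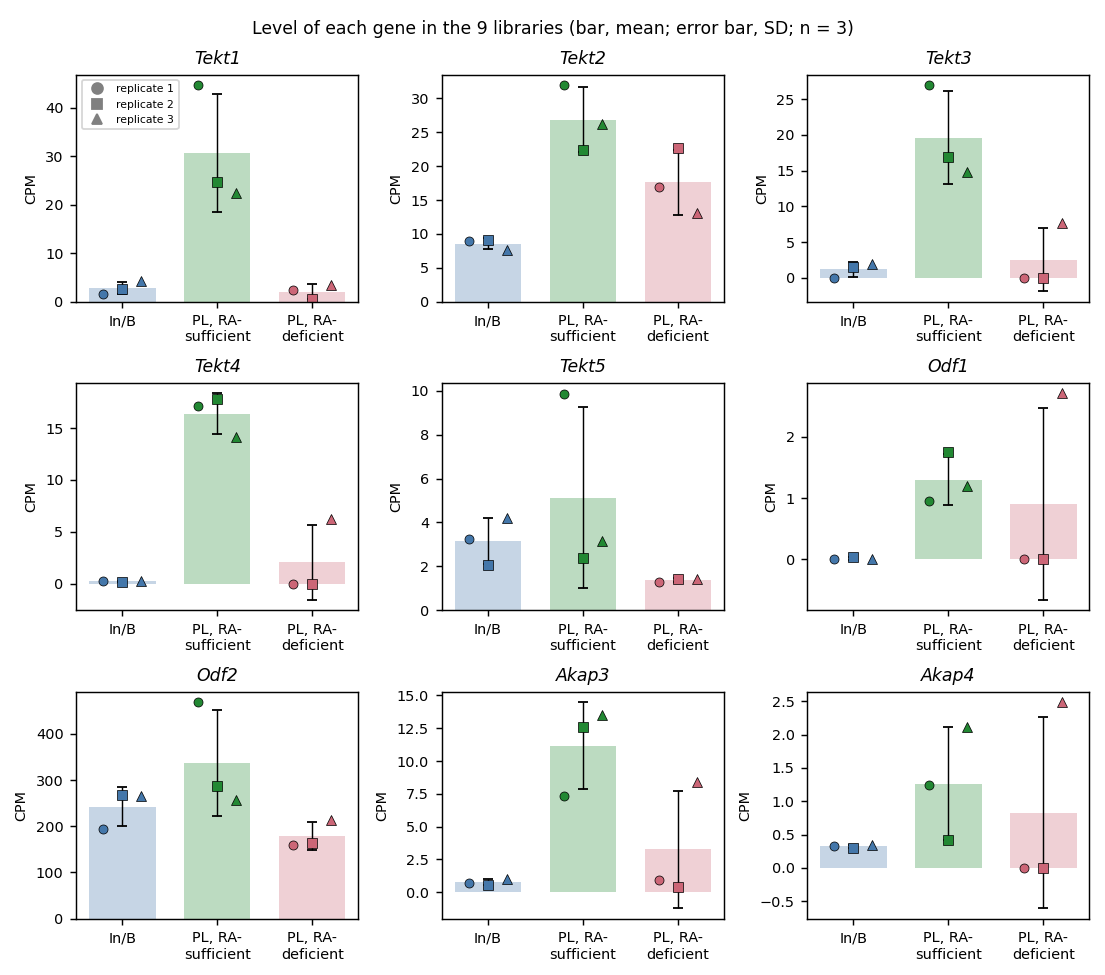
CPM of each of the 9 genes in every library (points, symbol by replicate), with the group mean (bar) and SD (error bar, n = 3). Tekt1, Tekt2, Tekt3, Tekt4, Odf1 and Akap3 are higher in all RA-sufficient PL libraries than in any In/B library, and RA-deficient library 3 lies above libraries 1 and 2 for Tekt3, Tekt4, Odf1, Akap3 and Akap4.

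Among the tektins, Tekt4 showed the largest rise. It was at 0.280, 0.151 and 0.283 CPM in the In/B libraries and at 17.2, 17.8 and 14.2 CPM in RA-sufficient PL. The groups were far apart and each was tight, with means of 0.238 ± 0.0750 and 16.4 ± 1.95 CPM (SD, n = 3). Tekt4 rose by 6.17 on the log2 scale (SE 0.37, adjusted p = 1.1e-05, edgeR's quasi-likelihood test). It rests on 14 counts in In/B against 848, and the ratio of the pooled levels was 71.2 with a 95% exact interval of 42.2 to 131 for counting error alone.

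Tekt1, which is found in the axonemes of motile cilia as well as sperm, was the most abundant tektin per kb of exon in RA-sufficient PL. Its level was 1.62, 2.61 and 4.24 CPM in In/B and 44.6, 24.7 and 22.4 CPM in RA-sufficient PL. All 3 PL libraries lay above all In/B libraries, with library 1 well above the other two. The log2 fold change was 3.49 (SE 0.42, adjusted p = 0.000152, edgeR's quasi-likelihood test).

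Tekt3, a tektin of the sperm flagellum, was at 0, 1.59 and 1.98 CPM in In/B and at 27.01, 16.98 and 14.87 CPM in RA-sufficient PL. In/B library 1, which held no Tekt3 read, had 16872425 counts in all, close to the 17201853 of In/B library 3, and the groups did not overlap. Tekt3 rose by 4.08 on the log2 scale (SE 0.81, adjusted p = 0.0022, edgeR's quasi-likelihood test), a call that was lost when all 9 libraries shared 1 estimate of spread (adjusted p = 0.081).

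Tekt2, a tektin needed for normal sperm flagella, was the tektin with the highest level in In/B cells. Its values were 9.001, 9.111 and 7.63 CPM there and 31.9, 22.4 and 26.2 CPM in RA-sufficient PL, without overlap. The rise was the smallest of the 6 called, at 1.70 on the log2 scale (SE 0.22, adjusted p = 0.000214, edgeR's quasi-likelihood test).

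Tekt5, a tektin known from sperm, overlapped between the groups. It was at 3.24, 2.08 and 4.18 CPM in In/B and at 9.86, 2.36 and 3.13 CPM in RA-sufficient PL. Library 1 alone stood above the In/B range. The log2 fold change of 0.74 (SE 0.57, adjusted p = 0.28, edgeR's quasi-likelihood test) became -0.16 without that library.

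Of the outer dense fibre genes, Odf1, which encodes a major fibre protein, was close to absent in In/B cells, with 1 read in all. The counts were 0, 1 and 0 there and gave 0.957, 1.76 and 1.19 CPM in RA-sufficient PL, from 69 reads. The groups did not overlap, and the ratio of the pooled levels was 81.2 with a 95% exact interval of 14.1 to 3250. Odf1 was called higher (adjusted p = 0.000408, edgeR's quasi-likelihood test).

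Odf2 encodes the other major fibre protein, which is also a part of the appendages of centrioles in most cells, and its pattern differed. It was at 194.3, 267.7 and 265.1 CPM in In/B and at 467.9, 286.4 and 257.0 CPM in RA-sufficient PL. The ranges overlapped, and the log2 fold change of 0.53 (SE 0.23, adjusted p = 0.069, edgeR's quasi-likelihood test) was not called. Per kb of annotated exon, In/B cells held 24.4 ± 4.2 CPM of Odf2 (SD, n = 3), against 4.52 ± 0.434 of Tekt2, the next in order, and the other 7 genes were at 1.75 or less.

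The order of levels per kb in RA-sufficient PL was Odf2 (34.0 ± 11.5 CPM per kb, SD, n = 3), Tekt1 (18.9 ± 7.52), Tekt2 (14.1 ± 2.53), Tekt3 (11.2 ± 3.71), Tekt4 (10.7 ± 1.27), Akap3 (3.54 ± 1.06), Tekt5 (2.83 ± 2.28), Odf1 (1.18 ± 0.373) and Akap4 (0.418 ± 0.280). From Tekt1 to Tekt4, and from Akap3 to Odf1, neighbours differed by less than the larger of their SDs. The means of the 4 tektins other than Tekt5 lay above both sheath genes, but Tekt1 and Tekt4 differed by more than the larger of their SDs.

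Akap3, the sheath anchoring protein that is made first in sperm tail assembly, was at 0.727, 0.567 and 1.02 CPM in In/B and at 7.36, 12.6 and 13.5 CPM in RA-sufficient PL. Its groups did not overlap, and it rose by 3.92 on the log2 scale (SE 0.40, adjusted p = 7.06e-05, edgeR's quasi-likelihood test). Akap4, the most abundant protein of the mature sheath, stayed low at 0.335, 0.302 and 0.339 CPM in In/B and 1.25, 0.424 and 2.12 CPM in RA-sufficient PL. All 3 PL libraries were above In/B, from 72 reads against 20, a ratio of 4.23 with a 95% exact interval of 2.55 to 7.34. Without the filter on low counts, Akap4 was called higher, with a log2 fold change of 1.98 (SE 0.73, adjusted p = 0.0391, edgeR's quasi-likelihood test). It was not called with all 9 libraries in 1 fit (adjusted p = 0.349) or without any 1 In/B library (adjusted p = 0.0603 to 0.0869).

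In this comparison 7 of the 9 genes had every RA-sufficient library above every In/B library, an arrangement seen in 35.6% of the genes tested. Sertoli and pachytene markers moved the same way, 11 of 11 and 10 of 11 of them called higher.

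**Figure D3:**
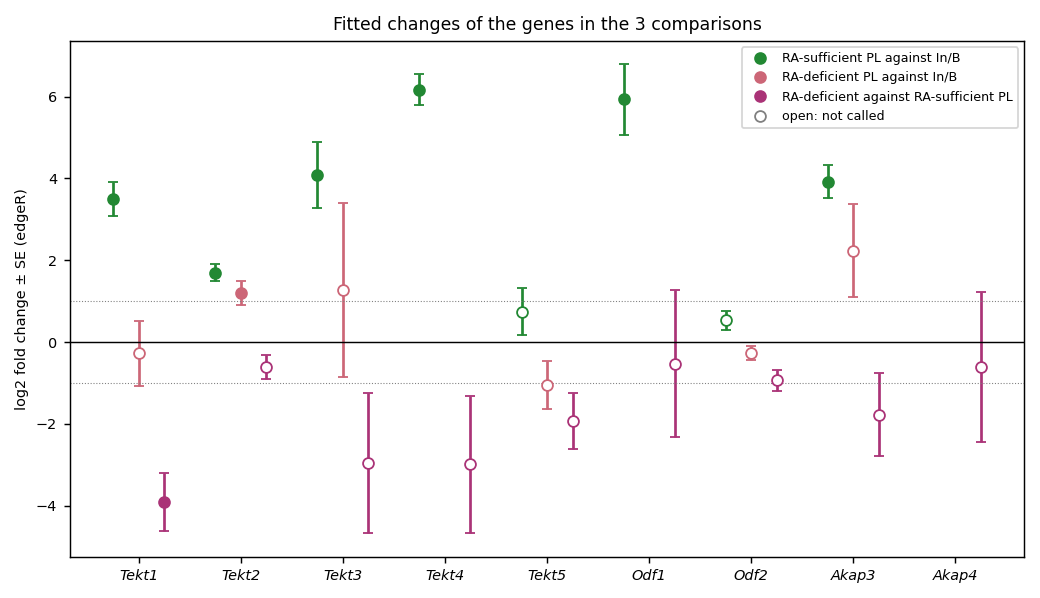
Log2 fold change ± SE from edgeR for each gene in the 3 comparisons (colours); filled points were called and open points were not, dotted lines mark 1 and -1, and genes too low to test have no point. The wide error bars of Tekt3, Tekt4, Odf1, Akap3 and Akap4 in RA-deficient comparisons come with 1 high library of 3.

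In RA-deficient PL against In/B, Tekt2 was the 1 tail gene called higher and none was called lower. Tekt2 was at 16.95, 22.74 and 13.16 CPM in the RA-deficient libraries, all above the In/B range, and the log2 fold change was 1.21 (SE 0.29, adjusted p = 0.0143, edgeR's quasi-likelihood test). The background was 11.4% of 14877 genes called higher and 11.8% called lower. Tekt2 was not called with library size as the only scaling (0.89), nor without In/B library 2, In/B library 3 or RA-deficient library 2, and without RA-deficient library 3 it was at 1.38 (adjusted p = 0.00289, edgeR). Of the 6 genes tested, Tekt1 was at -0.28, Odf2 at -0.27, Tekt5 at -1.05, Tekt3 at 1.27 and Akap3 at 2.24 on the log2 scale, none of them called. Tekt4, Odf1 and Akap4 had too few counts to enter the test.

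With RA-deficient library 3 as the only RA-deficient library, a fit that assumes it varies as the In/B libraries do, 4 genes were called higher than In/B: Akap3 (log2 fold change 3.53), Akap4 (2.99), Tekt4 (4.79) and Odf1. Of all 16062 genes in that fit, 15.7% were called higher. Tekt3 was at 2.76 (adjusted p = 0.112, edgeR). This alternative was added after the values had been seen.

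Between RA-deficient and RA-sufficient PL spermatocytes, Tekt1 was the 1 tail gene called, and it was lower without RA. Fitted log2 fold changes ran from -3.90 for Tekt1 to -0.53 for Odf1. For Odf1 and Akap4 the SE (1.80 and 1.84) was larger than the change. The rule for calls was met by 11.0% of 15352 genes as lower and by 4.47% as higher. The median log2 fold change of the 9 genes was -1.78, against -0.09 over all genes. Since both PL groups are set against the same In/B libraries above, those 2 comparisons are not independent. Scaling by library size alone moved the median of all genes from -0.09 to -0.27 and left 426 genes higher and 2003 lower, in place of 687 and 1696. In RA-deficient PL against In/B it left 1123 higher and 2762 lower in place of 1693 and 1753, with a median of -0.31 against 0.00.

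Tekt1 fell to 2.36, 0.476 and 3.41 CPM in the RA-deficient libraries, each below the lowest RA-sufficient value of 22.4 CPM. The log2 fold change was -3.90 (SE 0.71, adjusted p = 0.00955, edgeR's quasi-likelihood test). The call held without RA-deficient library 3 (-4.42, adjusted p = 0.00225, edgeR). With library 3 as the only RA-deficient library, an alternative added after the values had been seen, the change of Tekt1 was -3.16. Its RA-deficient levels lay in or below the range of In/B cells.

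Odf2 was at 158.6, 164.3 and 213.2 CPM in RA-deficient PL, below all RA-sufficient libraries. Its log2 fold change of -0.93 (SE 0.26, adjusted p = 0.0405, edgeR's quasi-likelihood test) passed the p but not the fold, and reached -1.05 without RA-deficient library 3, where it was called. Tekt5 was at 1.28, 1.43 and 1.40 CPM, the tightest of the 9 genes in that group and below every library of both other groups. It was at -1.93 (SE 0.68, adjusted p = 0.081, edgeR's quasi-likelihood test) and was called with all 9 libraries in 1 fit (adjusted p = 0.0436) and by DESeq2 (adjusted p = 0.0302). Without RA-sufficient library 1, its highest library, the change was -0.98 (adjusted p = 0.362, edgeR).

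Tekt2 was not called between the PL groups, at -0.62 (SE 0.29, adjusted p = 0.169, edgeR's quasi-likelihood test). Its RA-deficient value of 22.7 CPM in library 2 overlapped the RA-sufficient range of 22.4 to 31.9 CPM, while libraries 1 and 3 lay below it.

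For the other 5 genes the RA-deficient libraries split. Tekt3 was at 0, 0 and 7.70 CPM, and Tekt4 at 0, 0 and 6.25 CPM. Odf1 was at 0, 0 and 2.71 CPM, Akap4 at 0, 0 and 2.49 CPM, and Akap3 at 0.960, 0.396 and 8.44 CPM. In each, library 3 was the high one, and for Tekt3 and Tekt4 it still lay below every RA-sufficient library. For Odf1 and Akap4 it lay above them all.

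Their fitted changes against RA-sufficient PL were -2.96 for Tekt3, -2.99 for Tekt4, -1.78 for Akap3, -0.62 for Akap4 and -0.53 for Odf1, with SEs of 1.01 to 1.84 and adjusted p of 0.236 or more in edgeR's quasi-likelihood test. Without RA-deficient library 3, these 5 genes joined Tekt1 and Odf2, so that 7 of the 9 were called lower, against 20.4% of the 15799 genes tested in that fit. With library 3 as the only RA-deficient library, the changes were -1.34 for Tekt3, -1.38 for Tekt4, -0.41 for Akap3, 0.96 for Akap4 and 1.05 for Odf1. That fit sets 1 library against 3 and was added after the values had been seen. The group result for these 5 genes therefore depended on which RA-deficient libraries entered it.

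RA-deficient libraries 1 and 2 together held 0 counts of Tekt3, Tekt4, Odf1 and Akap4. With 3 counts over both libraries as the floor, 0.0597 CPM, Tekt3 was at least 329-fold lower there than in RA-sufficient PL and Tekt4 at least 274-fold lower. Odf1 was at least 21.8-fold and Akap4 at least 21.2-fold lower. A zero of this kind was not particular to tail genes: of 14006 genes with at least 10 counts in each RA-sufficient library, 446 (3.18%) had 0 counts in both of these libraries, and 269 (1.92%) also had at least 10 counts in library 3. Among the tail genes, 8 had at least 10 counts in each RA-sufficient library, and 3 of these, Tekt3, Tekt4 and Odf1, had 0 counts in libraries 1 and 2.

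**Figure D4:**
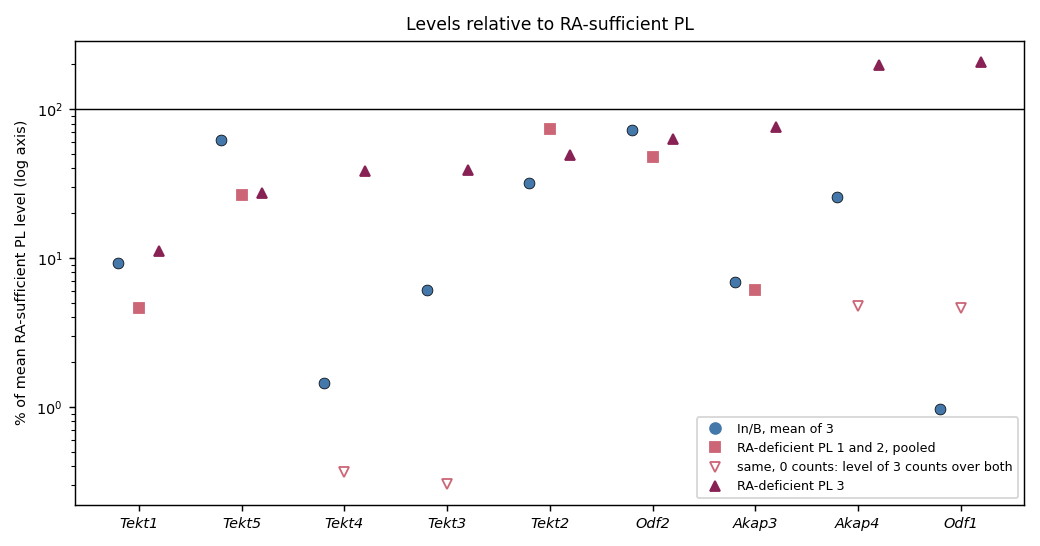
Level of each gene as a percentage of its mean in RA-sufficient PL (log axis), for the mean of In/B (circles), RA-deficient libraries 1 and 2 pooled (squares, or open triangles at the level of 3 counts where there were 0) and RA-deficient library 3 (filled triangles). Library 3 runs from 11.2% for Tekt1 to 208% for Odf1.

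Seen as a share of the RA-sufficient mean, RA-deficient library 3 had 11.2% of Tekt1, 27.3% of Tekt5, 38.2% of Tekt4, 39.2% of Tekt3 and 49.0% of Tekt2. It had 63.2% of Odf2, 75.5% of Akap3, 197% of Akap4 and 208% of Odf1. All 5 tektins were thus below all 4 fibre and sheath genes in this 1 library, a description with no replicate. In libraries 1 and 2 pooled, the shares were 74.0% for Tekt2, 47.9% for Odf2, 26.4% for Tekt5, 6.06% for Akap3 and 4.62% for Tekt1. Tekt2 was the 1 gene for which libraries 1 and 2 together exceeded library 3, at 19.9 against 13.2 CPM.

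Over the 9 genes, 5 had every RA-deficient library below every RA-sufficient one (Tekt1, Tekt3, Tekt4, Tekt5 and Odf2), against 27.3% of the genes tested. The RA-sufficient libraries that were higher for these genes also had the higher Sertoli sum, 3243 to 4333 against 365.1 to 619.5 CPM.

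Across the 9 libraries the genes differed in shape. Taking the 7 with a mean of at least 1 CPM, Pearson's r of log2(CPM + 1) ranged from 0.228 for Tekt2 with Tekt5 to 0.971 for Tekt4 with Akap3, over 9 libraries that share groups, depth and composition. Of 14003 genes searched, the one most like Tekt1 was Rbl2, a retinoblastoma family member (r = 0.994), with 4.30 to 8.54 CPM in In/B, 30.4 to 47.3 CPM in RA-sufficient PL and 3.29 to 8.70 CPM in RA-deficient PL. Tekt3 was most like Pabpc2 (r = 0.999), Tekt4 most like Zdhhc5 (r = 0.994), Akap3 most like Sdr42e1 (r = 0.991), Odf2 most like Clint1 (r = 0.988), Tekt2 most like Atox1 (r = 0.982) and Tekt5 most like Wsb2 (r = 0.944). The genes of highest likeness were all different. Pearson's r compares shape and not the size of a change. Zdhhc5 ranged from 178.3 to 258.2 CPM and Clint1 from 72.5 to 97.4 CPM, while Tekt4 ranged from 0 to 17.8 CPM.

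Other proteins of the doublet lumen, where tektins sit, were read from a list of 25 genes, 20 of them with a line in the table. Against In/B, 11 of 19 tested rose in RA-sufficient PL and none fell, with a median log2 fold change of 2.17. Of all genes, 26.1% were called higher and 19.3% lower. Cfap161 and Cfap45, which line the inside of the doublet, had the largest rises, at 5.07 and 3.97. Cfap161 was at 33.19, 16.98 and 17.03 CPM in RA-sufficient PL and at 0, 0 and 2.58 CPM in the RA-deficient libraries, the split seen for Tekt3 and Tekt4.

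In RA-deficient PL against In/B, 2 of 18 of these genes rose, among them Ribc2 (1.05), with a median of 0.33. That share is close to the 11.4% of all genes called higher in this comparison. Between the PL groups 3 of 19 fell, Efhb (-2.36), Spag8 (-2.32) and Cfap53, the median being -1.39. This count is not far from the 11.0% of all genes called lower there. Ribc2 was at 22.3, 19.9 and 29.6 CPM in RA-deficient libraries 1, 2 and 3, and at 16.2 to 22.1 CPM in RA-sufficient PL.

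**Figure D5:**
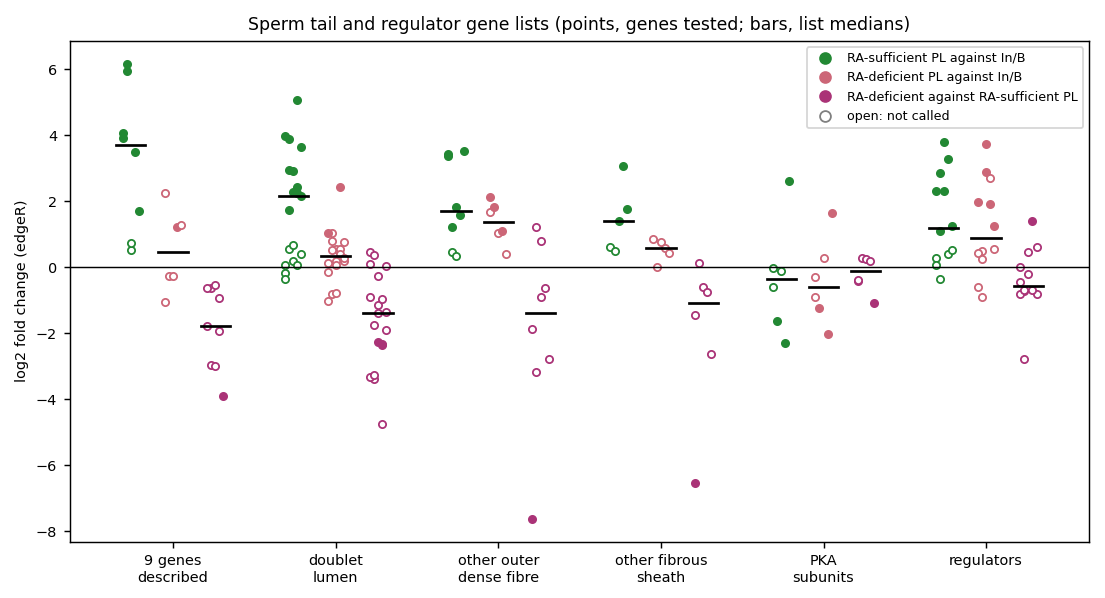
Log2 fold changes from edgeR of the tail genes described and of the other lists, in the 3 comparisons (colours); each point is a gene tested, filled where called, and bars are list medians. Tail gene lists have medians of 1.41 to 3.71 in RA-sufficient PL against In/B and of -1.78 to -1.09 between the PL groups, while the PKA medians lie between -0.60 and -0.11.

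Of 11 other outer dense fibre genes, 6 of 8 tested rose in RA-sufficient PL (median 1.70), against 26.1% of all genes. Among them were Odf3b (3.52) and Odf4 (3.42). Odf4 was at 61.8, 21.6 and 16.4 CPM in RA-sufficient PL and at 0, 0 and 11.3 CPM in RA-deficient PL. In RA-deficient PL 3 of 6 tested rose above In/B (median 1.38), against 11.4% of all genes. Among them were Spag4, a tail-associated membrane protein of the spermatid, at 2.13 and Klc3, a kinesin light chain that binds the fibres, at 1.82. Spag4 was at 16.7, 24.8 and 38.1 CPM there, against 12.6 to 18.4 CPM in RA-sufficient PL. Between the PL groups 1 of 8 fell, Odf3l1, which had 0 counts in all 3 RA-deficient libraries (median -1.38). This count is close to the 11.0% of all genes called lower.

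Of 8 other fibrous sheath genes, 3 of 5 tested rose in RA-sufficient PL (median 1.41): Ropn1l (3.07), Spa17 (1.75) and Gapdhs, which encodes the glycolytic enzyme of the sheath. Of all genes, 26.1% were called higher there. None of 5 was called in RA-deficient PL against In/B (median 0.60). Between the PL groups 1 of 6 fell, Akap14, at most 0.606 CPM in any library, against 11.0% of all genes. Ropn1l, which binds the sheath anchoring proteins, was at 99.1, 42.5 and 46.9 CPM in RA-sufficient PL and at 2.40, 4.64 and 24.3 CPM in RA-deficient PL.

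PKA subunits, which the sheath proteins tether, moved both ways. The regulatory subunit gene Prkar2a rose by 2.60 on the log2 scale in RA-sufficient and by 1.66 in RA-deficient PL against In/B. Prkar1b (-2.31 and -2.02) and Prkacb (-1.63 and -1.25) fell in both. Between the PL groups Prkar2a was the 1 subunit of 6 called, with a log2 fold change of -1.07 and 15.0, 15.1 and 24.2 CPM in RA-deficient PL against 34.6 to 43.6 CPM. Of all genes, 11.0% were called lower.

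Of 12 regulators of flagellar and spermatid genes, each with reads in all PL libraries except Rfx4 in RA-deficient library 2, 7 rose in RA-sufficient PL (median 1.18) and 5 in RA-deficient PL (median 0.89), and none fell. Over all genes, 26.1% and 11.4% were called higher in these 2 comparisons, and 19.3% and 11.8% lower. Mybl1, a master regulator of pachytene transcription, rose by 3.80 in RA-sufficient and by 3.72 in RA-deficient PL, and was at 123.6, 116.9 and 226.1 CPM in RA-deficient libraries 1, 2 and 3. Sox30, a regulator of the spermatid programme, was called higher than In/B in both PL groups, by 2.88 in RA-deficient PL. It was at 10.4 to 11.5 CPM in In/B and at 43.9 to 56.2 CPM in RA-sufficient PL. In RA-deficient PL it was at 49.3, 53.4 and 113.2 CPM. Sox5 rose by 3.27 in RA-sufficient PL, to 2.12 to 3.68 CPM. It was not called in RA-deficient PL, at 0.080, 1.15 and 4.33 CPM.

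Rfx1 was the 1 regulator called between the PL groups, at 1.41 higher in RA-deficient PL, with 151.4, 145.0 and 106.1 CPM against 39.8 to 59.3 CPM. Of all genes, 4.47% were called higher in this comparison. Of the other RFX genes, Rfx2 was at 100.0, 73.7 and 78.0 CPM in RA-sufficient PL and at 39.6, 36.0 and 67.9 CPM in RA-deficient PL, lower in every library but not called (-0.82, adjusted p = 0.072, edgeR's quasi-likelihood test). Rfx4 was at 30.3, 9.46 and 6.40 CPM and at 1.48, 0 and 5.42 CPM, not called either (-2.78, adjusted p = 0.181, edgeR), and Rfx3 was at 0.02. Rfx2 (1.25) and Rfx4 (2.86) were called higher in RA-sufficient PL than in In/B. Binding to the motifs of the Tekt1 and Tekt2 windows was not measured.

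RA targets were read as a check on the treatment. Cyp26a1, an RA-degrading enzyme gene, was at 13.8, 9.76 and 13.4 CPM in RA-sufficient PL and at 0, 0.476 and 1.18 CPM in RA-deficient PL, and Stra6, a retinol transporter gene, at 81.3 to 122.3 and 7.68 to 7.74 CPM. Both were called lower in RA-deficient PL, at -4.48 and -3.66 on the log2 scale. Cyp26b1, another RA-degrading enzyme gene, was not called between the PL groups. It was at 7.72 to 9.86 CPM in RA-sufficient PL and at 19.6, 11.6 and 2.89 CPM in RA-deficient PL. Against In/B it was called lower in RA-sufficient PL, at -1.35. Stra8, the RA-induced gene of meiotic entry, was not called. It was at 444.1, 126.2 and 120.6 CPM in RA-sufficient PL and at 377.0, 365.4 and 81.5 CPM in RA-deficient libraries 1, 2 and 3. Rec8, another RA-induced gene, was not called either, at 29.4, 39.5 and 5.86 CPM, against 30.0 to 45.3 CPM in RA-sufficient PL. Rarb was at most 0.848 CPM in any library. Of 7 RA targets tested, 3 were called lower between the PL groups, none was called higher and 4 were not called. Cyp26a1 and Stra6 were low in all 3 RA-deficient libraries, as Tekt1 was, while library 3 differed from libraries 1 and 2 in Stra8. The Sertoli sum was also lower in the RA-deficient group, and its part in these values was not tested.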

How the data were processed

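mRNA was sequenced from 9 libraries, 3 per group. The deposited values are raw read counts, which the authors made per gene and did not normalize. Per the labels they trimmed reads with cutadapt 1.9, aligned them to mm9 with STAR 2.5.2b and counted with featureCounts. Strand use in counting is not given in the sources used here, so antisense partners can share reads. The 9 columns were matched by name, leaving 0 unused.

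Counts were compared between pairs of groups in edgeR 4.0.16 (R 4.3.3) with TMM scaling, filterByExpr, the quasi-likelihood test and Benjamini-Hochberg adjustment over all genes tested. The SE is the log2 fold change over the root of F. Calls needed more than 1 on the log2 scale in either direction and an adjusted p under 0.05. DESeq2 1.42.0, other scalings, filters and thresholds, a replicate block and leaving out libraries were alternatives. The test was checked on simulated counts. Exact intervals are conditional binomial at 95%, and like the floor of 3 counts they cover counting error only.

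The genes named are all members, and per list and comparison the 2 called higher and the 2 called lower with the largest change at a mean of at least 1 CPM. RA targets and cell type checks, and the gene most like each member by Pearson's r, were added by the same rule. Cfap53, Gapdhs, Odf3l1, Akap14, Ldhc, Ybx2, Prm2, Spaca1, Zpbp, Zpbp2, Smcp, Zbtb16, Lin28a, Rfx2, Rfx3 and Rfx4 were named only once their values were known. The members and lists were chosen with earlier results of these data known. List counts include 1 gene whose own values are not reported here.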

Additional observations from a re-analysis of the deposited data

Results flagged for a closer look

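In a fit of all 9 libraries, 3 of the genes differed between the PL groups at an adjusted p under 0.05 (edgeR's quasi-likelihood test). In/B cancels when the 2 changes from In/B are subtracted. The values are thus those of RA-deficient against RA-sufficient PL in that fit, and no further test. Odf2 did not pass the fold threshold there and was not called. As RA-deficient minus RA-sufficient, the difference was -3.85 (SE 0.67, adjusted p = 0.00254) for Tekt1, -1.87 (SE 0.62, adjusted p = 0.0436) for Tekt5 and -0.89 (SE 0.23, adjusted p = 0.0167) for Odf2 on the log2 scale. In the fit of the PL groups alone, the value for Tekt5 was -1.93, and -0.98 (adjusted p = 0.362) without RA-sufficient library 1. All 3 RA-deficient libraries lay below all 3 RA-sufficient libraries for each of these genes. The groups of 3 libraries were too small for a formal search for single libraries that stand apart. RA-deficient library 3 was set apart above because of its marker values. RA-sufficient library 1 correlated with RA-sufficient libraries 2 and 3 at r = 0.9675 and 0.9622, and these correlated with each other at 0.9911 (Pearson's r of log2(CPM + 1)).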

How the results depend on the processing

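Of 360 log2 fold changes of single genes under the alternatives, 329 kept their direction and their side of the threshold, 13 became calls, 7 lost a call and 11 changed sign. The 360 include the alternatives at an adjusted p of at most 0.01 and with the adjusted p alone. These keep the fold changes of the main fit, so only the call could change there. The count of 6 genes higher in RA-sufficient PL than in In/B kept within 1.5 times under every alternative run. For RA-deficient PL against In/B, the count of 1 gene higher went to 0 with library size as the only scaling, to 0 at an adjusted p of at most 0.01 and to 4 with RA-deficient library 3 as the only RA-deficient library, and ranged from 0 to 1 when leaving out 1 library. For RA-deficient against RA-sufficient PL, the count of 1 gene lower was 2 with library size only, all 9 libraries in one fit, DESeq2, adjusted p alone or RA-deficient library 3 alone, and ranged from 1 to 7 when leaving out 1 library, with 7 when RA-deficient library 3 was left out.

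Signs changed as follows, and the cause was not tested. Leaving out 1 library gave log2 fold changes of -0.16 to 1.08 for Tekt5 in RA-sufficient PL against In/B. In RA-deficient PL against In/B it gave -0.82 to 0.17 for Tekt1, -7.67 to 1.86 for Tekt3 and -0.015 to 2.72 for Akap3, and between the PL groups -7.75 to 0.066 for Odf1. Values near -7 come from genes with 0 counts in the remaining RA-deficient libraries and are no bounds. With RA-deficient library 3 alone, Tekt1 was at 0.35 against In/B, and Odf1 and Akap4 at 1.05 and 0.96 against RA-sufficient PL.

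The replicate numbers did not pair the samples: correlations of deviations between same-numbered libraries ran from -0.268 to 0.134 over 14010 genes. The fit with the replicate block kept the counts at 6, 1 and 1 genes, and turned Tekt3 in RA-deficient PL against In/B to -1.16. Depth limits Odf1, Akap4 and Tekt4 in In/B cells, where the group held 1, 20 and 14 reads of them.

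Over all genes, some counts moved by more than 1.5 times. In RA-deficient against RA-sufficient PL, 687 genes higher and 1696 lower became 313 to 1266 and 840 to 3218 when leaving out 1 library, 252 and 721 at an adjusted p of at most 0.01, 426 higher with library size only and 1694 higher with the adjusted p alone. In RA-deficient PL against In/B, 1693 higher and 1753 lower became 1123 and 2762 with library size only and 2734 and 2725 with the adjusted p alone. The lower count there was 1084 at an adjusted p of at most 0.01 and 3509 with RA-deficient library 3 alone. In RA-sufficient PL against In/B, 2895 lower became 4679 with the adjusted p alone.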
